A study of Mus musculus with 12 samples.

Results

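The insulin-like growth factor (IGF) family was examined through 9 genes: the binding proteins Igfbp2, Igfbp3, Igfbp4, Igfbp5, Igfbp6 and Igfbp7, the ligand Igf1, and the receptors Igf1r and Igf2r. Their members were taken as all non-control probes of a mouse whole-genome array whose accession maps to 1 of these symbols. Of the 9 genes 8 had a probe, 13 probes in all, among 31064 features tested, and all 13 probes passed the filter on dim signals. The features are 16986 genes with a RefSeq symbol and 14078 accessions without one, and shares called are given over all of them. No probe mapped to Igfbp6, which is not analysed here. The family was chosen because Igfbp5 differs strongly between the mutants. Differences of the members between the mutants are therefore given as a description with no test, and Igfbp5 is given with no test in any comparison.

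RNA came from 12 cultured colonies of mouse dental epithelium, derived from the labial cervical loop, the stem cell niche at the base of the growing incisor. The wild-type group, the Bmi1 mutant group (labelled Bmi1-, and Bmi1-/- in the study's title) and the double mutant group (labelled Bmi1-;Ink4a/Arf-) held 4 arrays each, 1 colony per array, and all mice were of mixed genetic background. Bmi1 is a subunit of a Polycomb repressive complex, and the Ink4a/Arf locus, Cdkn2a, which that complex holds silent, encodes inhibitors of the cell cycle. The double mutant colonies thus carry the Bmi1 mutation of the Bmi1 mutant colonies together with loss of that locus. The age of the mice and the number of animals behind the colonies are not stated in the sources used here. P-values therefore measure the spread between colonies. Each array read a colony grown in vitro rather than tissue, and the RNA was amplified before labelling.

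IGF ligands bind the tyrosine kinase receptor Igf1r, which signals through insulin receptor substrates to PI3K, Akt and mTOR and promotes growth and survival. Igf2r carries no kinase and takes up ligand for degradation in lysosomes. The binding proteins hold IGFs outside the cell, can withhold them from the receptor or deliver them to it, and are themselves cut by proteases such as Pappa and Htra1. In teeth, IGF signals are known to act on both dental epithelium and mesenchyme.

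The sequences just before the starts of Igfbp5, Igfbp3 and Igfbp4 are shown because these 3 genes were all higher in double mutant than in Bmi1 mutant colonies, and that of Igfbp2 because it differed the other way and is a genomic neighbour of Igfbp5. They are the 250 bases before the start site in RefSeq on GRCm38.p6, read 5′ to 3′ on the strand of the gene, which is plus for Igfbp4 and Igfbp2 and minus for Igfbp5 and Igfbp3. They lie at chr1:72874866-72875115 for Igfbp5, chr11:7213924-7214173 for Igfbp3, chr11:99040994-99041243 for Igfbp4 and chr1:72824230-72824479 for the first of 2 start sites of Igfbp2. Capitals mark TATA-type words (TATAAA or TATATA or TATTTA) and GC boxes (the word GGGCGG), searched on both strands and chosen after the sequences were seen.

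Igfbp5 promoter: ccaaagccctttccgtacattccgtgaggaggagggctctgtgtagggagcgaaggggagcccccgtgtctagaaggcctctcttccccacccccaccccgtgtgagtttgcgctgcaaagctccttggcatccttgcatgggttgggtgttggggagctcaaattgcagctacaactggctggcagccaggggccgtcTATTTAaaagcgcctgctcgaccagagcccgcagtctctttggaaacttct

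Igfbp3 promoter: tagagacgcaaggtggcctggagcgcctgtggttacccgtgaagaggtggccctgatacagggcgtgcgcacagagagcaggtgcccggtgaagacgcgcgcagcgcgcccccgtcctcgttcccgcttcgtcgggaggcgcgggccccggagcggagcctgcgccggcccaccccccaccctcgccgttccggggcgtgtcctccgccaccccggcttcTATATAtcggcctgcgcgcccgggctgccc

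Igfbp4 promoter: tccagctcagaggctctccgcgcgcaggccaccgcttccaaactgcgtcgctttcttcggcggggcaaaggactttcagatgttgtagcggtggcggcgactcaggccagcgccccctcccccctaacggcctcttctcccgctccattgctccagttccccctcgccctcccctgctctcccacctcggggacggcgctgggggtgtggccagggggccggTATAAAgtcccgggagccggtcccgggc

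Igfbp2 promoter: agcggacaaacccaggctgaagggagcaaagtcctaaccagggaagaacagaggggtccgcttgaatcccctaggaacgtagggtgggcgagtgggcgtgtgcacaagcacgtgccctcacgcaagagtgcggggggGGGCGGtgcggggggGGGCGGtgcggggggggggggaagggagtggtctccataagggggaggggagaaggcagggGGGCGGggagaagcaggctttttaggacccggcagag

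Igfbp5, Igfbp3 and Igfbp4 each held 1 TATA-type word and no GC box, and the word began 51, 30 and 28 bases before the start. The printed Igfbp2 sequence held 3 GC boxes and no TATA-type word. The 250 bases before the second Igfbp2 start site, not printed, held neither word and had 56.4% GC. Over 32851 promoters of the same length from 27025 genes, 23.9% held a TATA-type word and 32.7% a GC box. The GC content was 58.8% for Igfbp5, 73.2% for Igfbp3, 69.2% for Igfbp4 and 67.2% for Igfbp2, beside a median of 52.4% over all promoters. The receptors Igf1r and Igf2r, not printed, held 2 and 3 GC boxes and no TATA-type word, and had 77.6% and 69.2% GC. All double mutant arrays of Igf2r also lay above its Bmi1 mutant arrays. Igfbp6, which had no probe, held 1 TATA-type word and no GC box. Igfbp7, not printed, held 4 GC boxes and no TATA-type word, and Igf1, not printed, held neither word. The printed genes were picked by their direction between the mutants, so no link of word and direction is read from them. A match is a description of the letters in this window only.

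The wild-type arrays stood apart from all others in the shape of their signal. Their interquartile range of log2 signal was 2.49 to 2.62, against 4.32 to 4.68 in Bmi1 mutant and 4.16 to 4.93 in double mutant arrays, and 90.7% to 96.9% of their spots were well above background against 77.2% to 84.4% and 74.8% to 87.6%. Every comparison with wild type rests on these arrays and cannot be given without them. Levels are log2 processed signal after subtracting the 75th percentile of the array, and on this scale the median of all features was itself 1.24 lower in Bmi1 mutant and 1.41 lower in double mutant than in wild-type colonies, and 0.07 lower in double mutant than in Bmi1 mutant colonies. Over genes with a symbol alone the median was 0.42 lower, 0.40 lower and 0.02 lower. Differences of the members from wild type, and those of some other genes, are therefore also given relative to these medians. The other differences from wild type are on the main scale only and include this shift. Bmi1 had a level of -0.27 ± 0.46 (SD, n = 4) in wild type, -2.36 ± 0.15 in Bmi1 mutant and -2.54 ± 0.20 in double mutant colonies, 0.85 and 0.86 below the median of all features and 1.66 and 1.86 below that of named genes, and its probe was well above background on all 12 arrays. Cdkn2a was well above background on 0, 4 and 0 of the 4 arrays. Epithelial markers were well above background on every array (9 of 9), with a summed signal, in units of the array's 75th percentile, of 126 to 402 in wild type, 439 to 619 in Bmi1 mutant and 385 to 807 in double mutant colonies. Most of this sum came from Krt14, the brightest of the 9, with mean levels of 7.44, 8.60 and 8.74. The 12 mesenchyme markers summed to 12.2 to 14.7, 5.06 to 10.4 and 5.69 to 41.4, the 6 immune markers to 6.16 to 7.37, 0.51 to 0.71 and 0.44 to 0.89, and the 6 endothelial markers to 2.10 to 2.45, 0.36 to 0.56 and 0.39 to 0.90. No marker of these lists was below background on all 4 arrays of a genotype. In such bulk samples, fewer cells of a type and less RNA per cell cannot be told apart.

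Igfbp5, a matrix-bound IGF binding protein and a substrate of Pappa, was lowest in Bmi1 mutant and highest in double mutant colonies. Its brighter probe had levels of -0.23, -0.45, 0.15 and 0.00 on wild-type arrays 1, 3, 4 and 5. Bmi1 mutant arrays 1 to 4 read -2.33, -1.79, -2.03 and -2.12. Double mutant arrays 1 to 4 read 1.28, 3.50, 1.73 and 4.88. The 3 genotypes did not overlap, and the double mutant arrays spread far more widely than the others, with replicates 4 and 2 well above replicates 1 and 3. The means were -0.13 ± 0.26 (SD, n = 4), -2.07 ± 0.23 and 2.85 ± 1.66. The double mutant mean was 4.91 ± 0.60 (SE) higher on the log2 scale than the Bmi1 mutant mean, 30.1-fold on the linear scale. Against wild type, Igfbp5 was 1.93 lower in Bmi1 mutant colonies (0.69 lower relative to the median of all features, 1.51 relative to named genes) and 2.98 higher in double mutant colonies (4.39 and 3.39 higher).

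**Figure D1:**
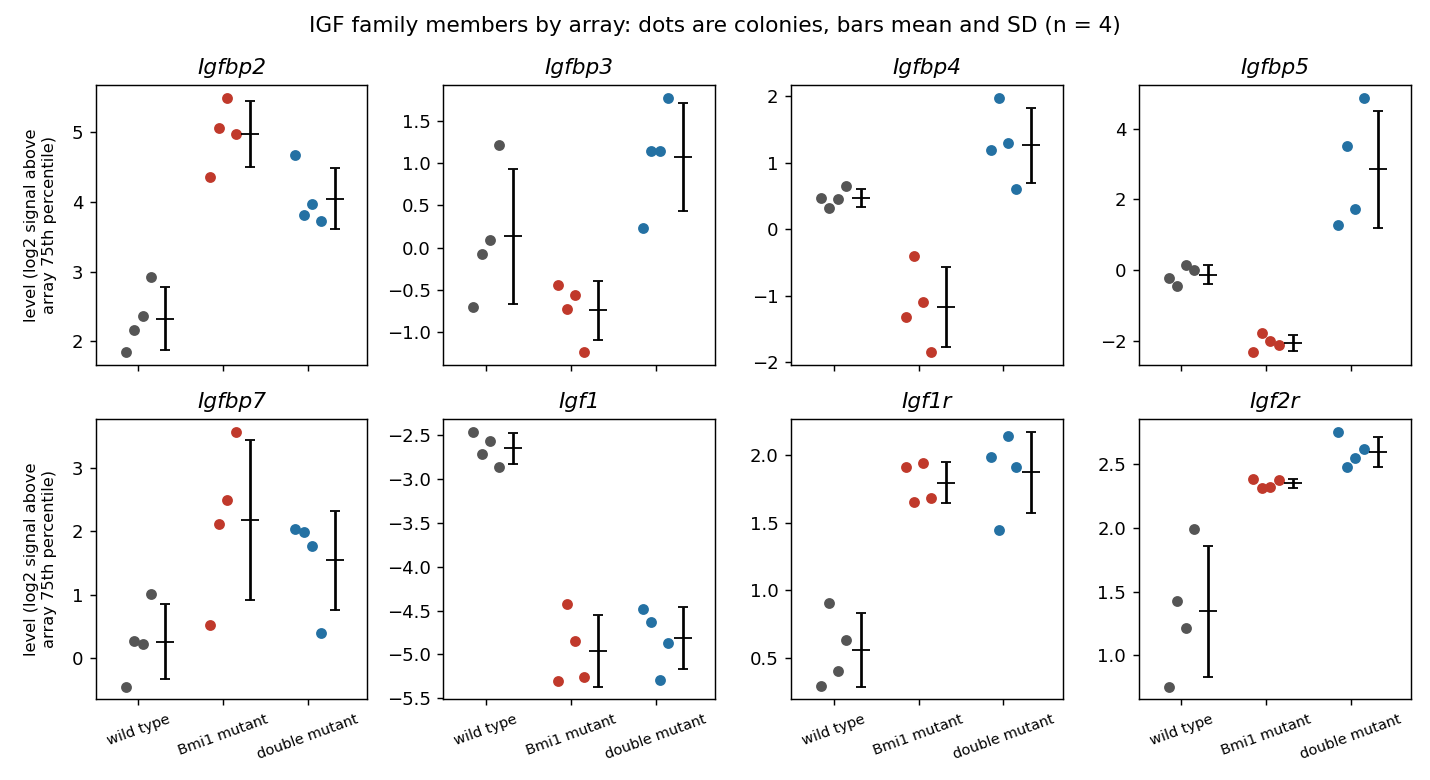
Level of each of the 8 measured IGF family genes on each array (y axis, log2 signal above the array's 75th percentile; each panel has its own scale) for wild-type, Bmi1 mutant and double mutant colonies, with the mean and SD of 4 arrays beside the dots. Igfbp5 runs from -2.33 in Bmi1 mutant to 4.88 in double mutant colonies, while Igf1r and Igf2r sit higher in both mutants than in wild type.

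The dimmer Igfbp5 probe gave the same order. It was not well above background on any Bmi1 mutant array but was so on all 4 arrays of each other genotype. Its wild-type levels were -3.14, -3.97, -2.60 and -3.43, and its double mutant levels were -3.21, -1.50, -3.18 and 0.45. The double mutant arrays thus overlapped the wild-type arrays on this probe, replicates 1 and 3 lying within the wild-type range and replicates 2 and 4 above it. The double mutant mean was 1.42 ± 0.66 (SE) above the wild-type mean here, against 2.98 with the brighter probe. Igfbp5 was at least 15.8-fold higher in double mutant than in Bmi1 mutant colonies and at least 5.89-fold lower in Bmi1 mutant than in wild-type colonies by this probe. Each bound sets the mean of the brighter group against a floor, which on every dim array is the dimmest signal that still counted as clear of background, or the probe's own reading where that is larger. Both bounds hold on the main scale only. In the authors' processed values (log2) this probe read 5.45 to 5.85 in wild-type and 5.43 to 5.55 in Bmi1 mutant colonies, which overlapped. It read 6.61 to 9.30 in double mutant colonies there. With the brighter probe the scanned signal before any scaling was 90.7 to 208 in Bmi1 mutant, 217 to 502 in wild-type and 1033 to 16600 in double mutant colonies.

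The size of the Igfbp5 difference between the mutants moved with the double mutant colonies included. Without double mutant replicate 4 it was 4.24, and without double mutant replicate 1 it was 5.44. On slide 2, which held 1 array of each mutant, it was 3.51, and on slide 3, with 1 Bmi1 mutant and 2 double mutant arrays, it was 5.11. With slide as a fixed block it was 4.49. The difference from wild type was 2.98 with all arrays and 2.30 without double mutant replicate 4.

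The double mutant array with the highest Igfbp5 also had the highest mesenchyme marker signal. The 12 mesenchyme markers summed to 41.4 on double mutant replicate 4, against 5.69 to 10.3 on the other 3 double mutant arrays, and 10 of the 12 were highest there within the double mutant group. Col1a2, a fibrillar collagen chain, had a level of 4.13 on that array and of 0.51, 1.31 and -0.84 on double mutant replicates 1, 2 and 3. Prrx1, a mesenchymal transcription factor, had 1.13 there and -3.03, -1.35 and -2.14 on the others. Double mutant replicates 1, 2 and 3 had Igfbp5 levels of 1.28, 3.50 and 1.73 and mesenchyme sums of 7.05, 10.3 and 5.69. The sums were 5.06 to 10.4 on Bmi1 mutant arrays. Wild-type arrays with sums of 12.2 to 14.7 had Igfbp5 levels of -0.45 to 0.15. The arrays of the mutants did not overlap for 1 of the 12 markers, Col1a2, beside 13.8% of all features. Col1a2 was 2.51 ± 0.76 (SE) higher in double mutant than in Bmi1 mutant colonies. Of the 12 mesenchyme markers 0 were called between the mutants by limma at an adjusted p under 0.05, beside 7.56% of all features, and 2 (Col1a2 and Pdgfrb, both higher in double mutant colonies) had an unadjusted p under 0.05. In a separate fit of only the probes above background on all 12 arrays, adjusted over fewer features, 10 of these markers were tested and 1 was called. The part of these cells in the Igfbp5 level of replicate 4 was not tested.

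**Figure D2:**
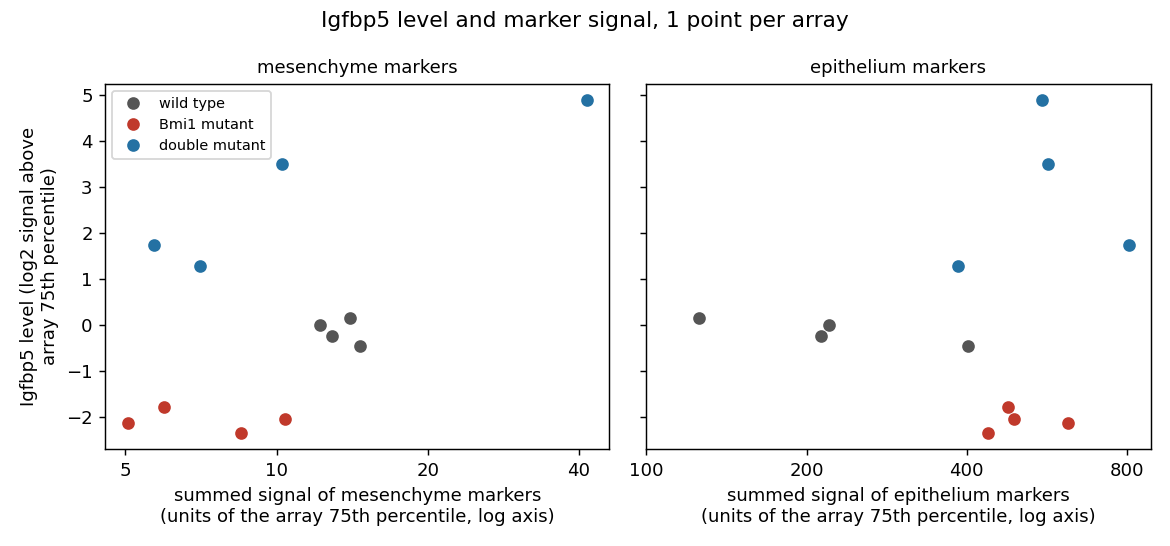
Igfbp5 level (y axis, log2 signal above the array's 75th percentile) against the summed signal of mesenchyme markers (left) and epithelium markers (right), in units of the array's 75th percentile on log axes, 1 point per array. Double mutant replicate 4 lies far to the right on the mesenchyme axis at 41.4, and the other 3 double mutant arrays lie at or below 10.3 with Igfbp5 above every wild-type array.

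Igfbp3, the main IGF carrier in serum, followed a similar order between the mutants with smaller differences. Its wild-type levels were -0.70, -0.07, 0.09 and 1.22. Bmi1 mutant arrays read -0.44, -0.73, -0.56 and -1.24. The double mutant arrays read 0.23, 1.15, 1.15 and 1.78. Both mutants overlapped the wild-type arrays, which themselves spread by about as much as the mutants differed, but the mutants did not overlap each other. The double mutant mean was 1.82 ± 0.40 (SE) above the Bmi1 mutant mean, or 3.53-fold. Igfbp3 rose by 0.94 ± 0.40 in double mutant against wild-type colonies (limma adjusted p = 0.0417), a call that ended in 7 of the 12 fits that left out 1 array. The call also ended with quantile normalization (0.79), normexp background correction (0.85), the authors' processed values (0.88), slide as a fixed block (1.15) and only these 2 genotypes in the fit (0.94). The fits that left out an array and lost it were those without wild-type replicates 1 (0.66), 3 (0.87) and 4 (0.93), without Bmi1 mutant replicate 3 (0.94) and without double mutant replicates 2, 3 and 4 (0.92, 0.92 and 0.71). The rise in double mutant colonies was 2.35 relative to the median of all features and 1.35 relative to named genes. The Igfbp3 difference between Bmi1 mutant and wild type was -0.88 ± 0.40 and did not pass (limma adjusted p = 0.0566). It was 0.36 above the median of all features but -0.45 relative to that of named genes, and passed with only these 2 genotypes in the fit, with only probes above background on all 12 arrays, without wild-type replicate 1 (-1.15), double mutant replicate 1 or double mutant replicate 4 (-0.88 in both).

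Igfbp4, which mainly inhibits IGF action and is released from it by Pappa, was lower in Bmi1 mutant and higher in double mutant colonies. Its brighter probe had wild-type levels of 0.47, 0.32, 0.46 and 0.65. Its Bmi1 mutant levels were -1.32, -0.40, -1.10 and -1.85, all below wild type. Its double mutant levels were 1.19, 1.98, 1.29 and 0.60, of which replicate 4 lay within the wild-type range. Igfbp4 fell by 1.64 ± 0.32 in Bmi1 mutant against wild-type colonies (limma adjusted p = 0.000414), 0.40 below the median of all features and 1.22 below that of named genes. Within slide 2, with 1 array of each, that difference was -0.72, which is 0.22 above the median of all features there and 0.35 below that of named genes. It rose by 0.79 ± 0.32 in double mutant against wild-type colonies (limma adjusted p = 0.0356), a call that ended without wild-type replicates 1 (0.79), 3 (0.74) or 4 (0.78) or double mutant replicates 2 (0.55) or 3 (0.78), with slide as a fixed block (0.47), quantile normalization (0.45), normexp (0.61) and in the authors' processed values (0.35). This rise was 2.19 relative to the median of all features and 1.19 relative to named genes. The dimmer probe gave the same directions with less spread: -1.49 ± 0.22 in Bmi1 mutant and 1.75 ± 0.22 in double mutant against wild-type colonies, with no overlap in either (limma adjusted p = 3.74e-05 and 8.84e-06 in the fit of every probe). Between the mutants the probes differed by 2.43 and 3.24.

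Igfbp2, an IGF binding protein with an integrin-binding motif, was higher in both mutants and higher in Bmi1 mutant than in double mutant colonies. Its wild-type levels were 1.85, 2.16, 2.36 and 2.92. On Bmi1 mutant arrays it read 4.35, 5.06, 5.49 and 4.97. On double mutant arrays it read 4.67, 3.81, 3.97 and 3.73. Every mutant array lay above every wild-type array, and the mutants overlapped through double mutant replicate 1. Igfbp2 rose by 2.64 ± 0.31 in Bmi1 mutant colonies (6.24-fold, limma adjusted p = 5.49e-06) and by 1.72 ± 0.31 in double mutant colonies (3.29-fold, limma adjusted p = 0.000174). The rises were 3.88 and 3.13 when set against the median of all features, and 3.06 and 2.12 against that of named genes. The double mutant call was lost under quantile normalization (0.65) and likewise in the authors' processed values (0.47). Between the mutants the difference was -0.92 ± 0.31, opposite to that of its neighbour Igfbp5.

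Igfbp7, a secreted relative of the family with low affinity for IGFs, was higher in Bmi1 mutant colonies with a wide spread. Its wild-type levels were -0.45, 0.26, 0.22 and 1.0. In Bmi1 mutant colonies the levels were 0.52, 2.12, 2.50 and 3.57. In double mutant colonies they were 2.03, 1.99, 1.76 and 0.39. The lowest array of each mutant, Bmi1 mutant replicate 1 and double mutant replicate 4, overlapped wild type, and the other 3 of each lay above it. Igfbp7 rose by 1.92 ± 0.57 in Bmi1 mutant against wild-type colonies (limma adjusted p = 0.00711). That rise was 3.16 relative to the median of all features and 2.34 relative to named genes. The double mutant difference was 1.28 ± 0.57 (limma adjusted p = 0.0502), which did not pass, and stood 2.69 and 1.69 above these medians. It was called with median scaling (2.31), with only these 2 genotypes in the fit or only probes above background on all 12 arrays, without wild-type replicate 5 (1.53), without Bmi1 mutant replicate 1 or 4 (1.28 in both) and without double mutant replicate 4 (1.67). That replicate is also the array with the highest Igfbp5 and the highest mesenchyme marker sum.

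Igf1, the secreted ligand of Igf1r, was dim and lower in both mutants on the main scale. Its brighter probe, spotted 10 times on each array, had wild-type levels of -2.46, -2.71, -2.56 and -2.86. Its Bmi1 mutant levels were -5.30, -4.43, -4.85 and -5.26, and its double mutant levels were -4.48, -4.63, -5.29 and -4.88. All mutant arrays lay below all wild-type arrays, and the mutants overlapped each other. It was well above background on 4, 3 and 3 of the 4 arrays, with a scanned signal of only 45.5 to 68.8 in wild type, 10.3 to 33.3 in Bmi1 mutant and 7.98 to 27.9 in double mutant colonies. Igf1 fell by 2.31 ± 0.24 (limma adjusted p = 2.53e-06) and by 2.17 ± 0.24 (limma adjusted p = 3.71e-06), or 1.07 and 0.76 below the median of all features and 1.89 and 1.76 below that of named genes. Neither call held with quantile normalization, where the differences were -0.24 and 0.01, or in the authors' processed values, where they were -0.09 and -0.03, and the double mutant call also ended with normexp background correction (-0.57). The dimmer Igf1 probe exceeded background clearly in wild type (4 of 4 arrays) but on no mutant array. On the main scale only, it was at least 3.62-fold lower in Bmi1 mutant and at least 2.97-fold lower in double mutant colonies. In the authors' processed values (log2) it read 5.34 to 5.51 in wild type, 5.16 to 5.53 in Bmi1 mutant and 5.07 to 5.40 in double mutant colonies. Both mutants overlapped wild type there. The summed signals of immune and of endothelial markers were also lower in both mutants, beside 58.3% and 59.9% of all features called lower. Of the 12 mesenchyme markers, 6 were called lower in Bmi1 mutant and 5 in double mutant colonies, and 1 was called higher in each. The part of such cells in the Igf1 level was not tested.

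Igf1r, the signalling receptor, was higher in both mutants with all 3 of its probes. The brightest probe had wild-type levels of 0.29, 0.90, 0.41 and 0.64. Its Bmi1 mutant levels were 1.91, 1.65, 1.94 and 1.68, and its double mutant levels were 1.99, 1.45, 2.14 and 1.92. Every mutant array lay above every wild-type array, and the mutants overlapped each other. Igf1r rose by 1.24 ± 0.21 in Bmi1 mutant colonies (2.36-fold, limma adjusted p = 0.000114) and by 1.31 ± 0.21 in double mutant colonies (2.49-fold, limma adjusted p = 6.31e-05). Relative to the median of all features these rises were 2.48 and 2.72, and relative to named genes 1.66 and 1.72. The other probes rose by 1.39 and 0.66 in Bmi1 mutant and by 1.70 and 1.04 in double mutant colonies. Both calls held under every scaling tried, with rises of 0.81 to 2.17 and 0.86 to 2.34. Between the mutants the difference was 0.08 ± 0.21.

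Igf2r, the receptor that clears Igf2 and sorts lysosomal enzymes, was also higher in both mutants. Its wild-type levels were 0.76, 1.42, 1.22 and 1.99. Its Bmi1 mutant levels were tightly grouped at 2.38, 2.31, 2.32 and 2.37, and its double mutant levels were 2.75, 2.47, 2.54 and 2.61. The 3 genotypes did not overlap. Igf2r rose by 0.999 ± 0.23 in Bmi1 mutant (limma adjusted p = 0.0014) and by 1.25 ± 0.23 in double mutant colonies (limma adjusted p = 0.000246). Relative to the median of all features these rises were 2.24 and 2.65, and relative to named genes 1.42 and 1.65. With quantile normalization (0.32 and 0.50) and in the authors' processed values (0.23 and 0.45) neither call held. Between the mutants the difference was 0.25 ± 0.23.

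**Figure D3:**
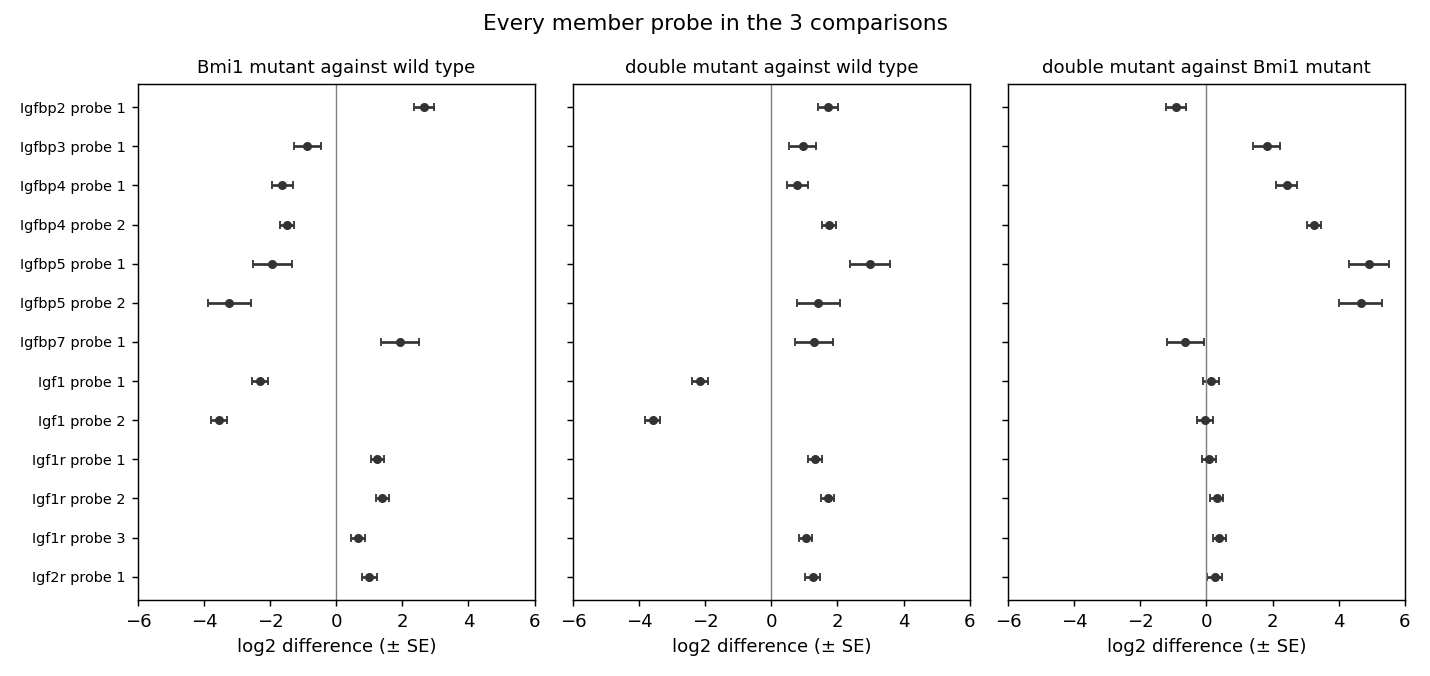
Log2 difference with its SE for each of the 13 member probes in the 3 comparisons, from a fit of all probes. The Igfbp4 and Igfbp5 probes lie left of 0 in Bmi1 mutant and right of 0 in double mutant colonies, and the 3 Igf1r probes lie right of 0 in both.

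Of the 7 measured members other than Igfbp5, 4 rose (Igfbp2, Igfbp7, Igf1r and Igf2r), 2 fell (Igfbp4 and Igf1) and 1 did not pass (Igfbp3) in Bmi1 mutant against wild-type colonies. This is beside 83.5% of all features called there, 25.2% higher and 58.3% lower. In double mutant against wild-type colonies 5 rose (Igfbp2, Igfbp3, Igfbp4, Igf1r and Igf2r), 1 fell (Igf1) and 1 did not pass (Igfbp7), beside 85.5% of all features, 25.5% higher and 59.9% lower. Over named genes alone 35.7% were called higher and 47.5% lower in Bmi1 mutant, and 37.1% and 47.0% in double mutant colonies. These comparisons share the wild-type arrays. Arrays that did not overlap were found for 5 of these 7 members in Bmi1 mutant colonies (3 higher and 2 lower), beside 80.1% of all features (23.8% higher and 56.3% lower), and for 4 in double mutant colonies (3 higher and 1 lower), beside 81.5% (24.6% higher and 56.9% lower). The share of members called is near the background in both and is no result about the family. Among all features called, the share that was higher moved with the scaling, from 30.2% and 29.9% on the main scale to 46.9% and 46.1% with median scaling and 46.7% and 46.8% in the authors' processed values. With quantile normalization 3 of the 7 rose and 1 fell in Bmi1 mutant, and only Igf1r rose and 0 fell in double mutant colonies. The count was the same in the authors' processed values.

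The arrays of the mutants did not overlap for 4 of the 8 measured members, Igfbp3, Igfbp4, Igfbp5 and Igf2r, all higher in double mutant colonies, beside 13.8% of all features, 6.35% higher and 7.43% lower. The family was chosen on this contrast, so nothing is read from this count. Under each of the 4 scalings plotted, Igfbp3, Igfbp4 and Igfbp5 were higher and Igfbp2 and Igfbp7 lower in double mutant than in Bmi1 mutant colonies. The Igfbp3 difference was 1.57 with quantile normalization and 1.58 in the authors' processed values, the Igfbp4 difference 2.11 and 2.05, and the Igfbp5 difference 4.33 in both.

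**Figure D4:**
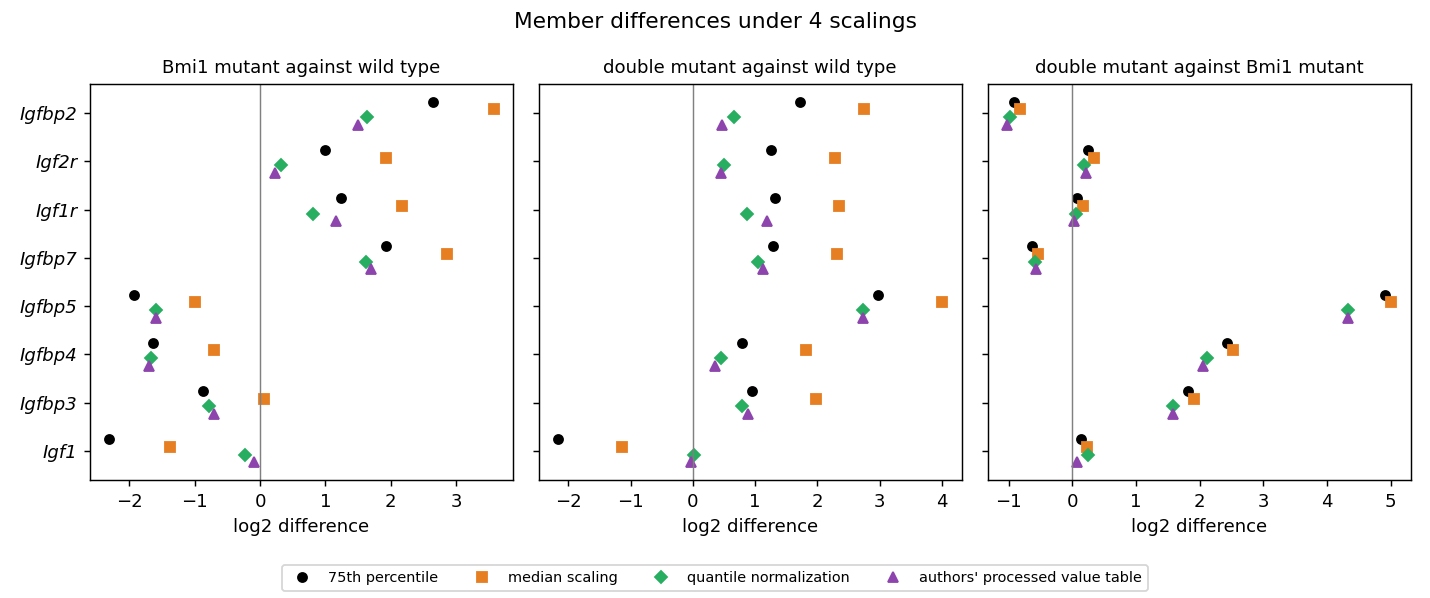
Log2 difference of each measured member (x axis) in the 3 comparisons under 4 scalings of the arrays: the 75th percentile, the median, quantile normalization and the authors' processed values. Igf1 moves from -2.31 and -2.17 to near 0 against wild type, Igfbp3 in Bmi1 mutant colonies passes from -0.88 to 0.06 with median scaling, and the differences between the mutants move little.

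Of 45 other IGF pathway genes listed by role, 44 had a probe, Irs2 being the one without. In Bmi1 mutant against wild-type colonies 23 rose, 13 fell and 8 did not pass by limma, beside 83.5% of all features called, and the median was 1.86 relative to that of all features and 1.04 relative to that of named genes. In double mutant against wild-type colonies 25 rose, 14 fell and 5 did not pass, beside 85.5% called, and the medians were 2.06 and 1.06. The share called is near the background in both. With quantile normalization the counts were 24 higher and 9 lower, and 25 higher and 7 lower, and the medians shrank to 0.92 and 0.93 relative to all features, or 0.69 and 0.63 relative to named genes. Leaving out each array in turn kept 35 of 36 and 35 of 39 of the calls.

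The PI3K, Akt and mTOR branch downstream of the receptors held most of the rises: 15 of 21 rose and 1 fell in Bmi1 mutant, and 16 rose and 2 fell in double mutant colonies. Beside this count and those of the roles that follow, 35.7% and 37.1% of named genes were called higher and 47.5% and 47.0% lower. Foxo3, a transcription factor that Akt excludes from the nucleus, went from 0.47 ± 0.29 (SD, n = 4) in wild type to 3.44 ± 0.17 in Bmi1 mutant and 2.50 ± 0.21 in double mutant colonies (limma adjusted p = 7.49e-08 and 1.26e-06 against wild type). Gsk3b, a kinase that Akt inhibits, went from 1.05 ± 0.24 to 3.97 ± 0.33 and 3.66 ± 0.24 (limma adjusted p = 1.66e-07 and 3.44e-07), though its dimmer probe rose by only 0.40 and 0.68. Both genes were also called with quantile normalization and in the authors' processed values.

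Among the adaptors, 4 of 8 rose and 3 fell in each mutant on the main scale, but with quantile normalization 5 and 6 rose and none of the falls was called. Irs1, the insulin receptor substrate, went from -1.02 ± 0.48 in wild type to 1.96 ± 0.30 in Bmi1 mutant (limma adjusted p = 2.17e-06) and 0.45 ± 0.55 in double mutant colonies (limma adjusted p = 0.000622). Gab1, a docking protein of receptor kinases, went from 0.04 ± 0.15 to 1.08 ± 0.38 and 1.55 ± 0.05 (limma adjusted p = 0.000387 and 1.63e-05). Of the other receptors, Insr, the insulin receptor, differed by 0.08 ± 0.19 in Bmi1 mutant colonies (limma adjusted p = 0.699) and rose by 0.65 ± 0.19 in double mutant colonies (limma adjusted p = 0.00613), a call lost with quantile normalization (0.37) and likewise in the authors' processed values (0.29). With median scaling Insr was called higher in both mutants, by 1.01 and 1.68. Insrr, its relative, fell by 2.60 ± 0.40 and 2.73 ± 0.40 (limma adjusted p = 5.63e-05 and 3.42e-05). That is 1.36 and 1.32 below the median of all features and 2.18 and 2.32 below that of named genes.

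All 3 further binding proteins, Igfbp1, Igfals and Igfbpl1, fell in both mutants, also relative to the median of all features. In double mutant colonies 2 of the 3 were called with median scaling and with quantile normalization. Igfbp1 fell by 1.94 ± 0.30 and 2.74 ± 0.30 (limma adjusted p = 6.27e-05 and 3.19e-06). That is 0.70 and 1.33 below the median of all features and 1.52 and 2.33 below that of named genes. Igfbpl1 was well above background on 3 wild-type arrays and on no mutant array, at least 6.09-fold lower in Bmi1 mutant and at least 5.0-fold lower in double mutant colonies. In the authors' processed values the Igfbpl1 differences were smaller, at -0.26, which was not called, and -0.44.

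The ligand Igf2 had levels of -0.90 ± 0.22 in wild type, -0.42 ± 0.25 in Bmi1 mutant and -0.24 ± 1.69 in double mutant colonies, and neither difference passed (limma adjusted p = 0.476 and 0.32). In the authors' processed values both were called as rises, of 1.29 and 1.47, and with median scaling the double mutant rise was called (1.69). The dimmer Igf2 probe was lower in both mutants on the main scale, by 0.85 and 0.44. Ins2 fell by 1.25 ± 0.20 and 1.44 ± 0.20 (limma adjusted p = 9.26e-05 and 2.54e-05), which is 0.01 and 0.04 below the median of all features and 0.83 and 1.04 below that of named genes, and with median scaling neither was called (-0.32 and -0.41).

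Among the genes that act on binding proteins, 2 of 5 rose and 3 fell in each mutant, and with quantile normalization 2 rose in each while 2 fell in Bmi1 mutant and 1 in double mutant colonies. Htra1, a secreted protease that cuts Igfbp5, went from -0.21 ± 0.63 in wild type to 2.83 ± 0.65 in Bmi1 mutant and 1.77 ± 0.59 in double mutant colonies (limma adjusted p = 1.58e-05 and 0.000476). Pappa, the protease of Igfbp4 and Igfbp5, went from 0.54 ± 0.31 to 2.35 ± 0.62 and 2.56 ± 0.13 (limma adjusted p = 6.36e-05 and 2.29e-05). Pappa2 and the Pappa inhibitors Stc1 and Stc2 were the 3 that fell on the main scale. Of the Igf2 mRNA-binding proteins, Igf2bp3 rose with all 3 of its probes, by 2.04 ± 0.20 and 2.46 ± 0.20 at the brightest (limma adjusted p = 1.43e-06 and 2.87e-07), Igf2bp2 also rose and Igf2bp1 fell in both mutants. The double mutant rise of Igf2bp2 ended with normexp (0.47), slide as a fixed block (0.59) and the replicate block (0.59). The call also ended in 4 of the 12 fits that left out 1 array, those without wild-type replicate 4 or 5 or double mutant replicate 3 or 4.

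**Figure D5:**
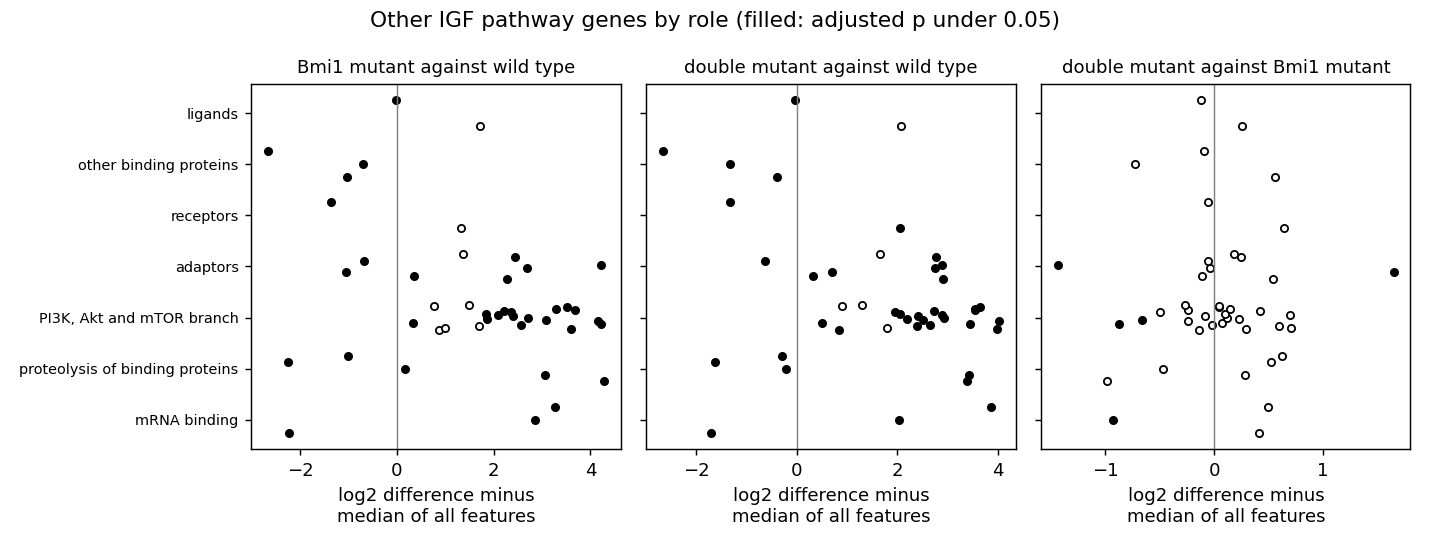
Log2 difference relative to the median of all features (x axis) for 44 other IGF pathway genes grouped by role, in the 3 comparisons; filled points passed the limma threshold. All 21 points of the PI3K, Akt and mTOR branch lie right of 0 against wild type, and few points are filled between the mutants. Relative to the median of named genes, not plotted, Tsc1 and Foxo4 were below 0 in both mutants and Akt1 in double mutant colonies.

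Between the mutants, 1 of the 44 pathway genes was higher and 4 were lower in double mutant colonies, and 39 did not pass, beside 2.75% of all features higher and 4.8% lower. The higher one was Grb14, an adaptor that inhibits receptor kinases, at 1.58 ± 0.27 (limma adjusted p = 0.00497). Grb14 was dim, with mean levels of -4.99 in Bmi1 mutant and -3.42 in double mutant colonies. Its probe was well above background on 3 and 4 of the 4 arrays. Irs1 was lower by 1.51 ± 0.31 (limma adjusted p = 0.0118), Foxo3 by 0.95 ± 0.20 (limma adjusted p = 0.0136), Mtor, the growth-control kinase, by 0.74 ± 0.16 (limma adjusted p = 0.0137) and Igf2bp2 by 0.999 ± 0.24 (limma adjusted p = 0.0261). The Igf2bp2 call held in 4 of 11 other settings and ended with median scaling (-0.90), quantile normalization (-0.87), normexp (-0.83), the authors' processed values (-0.85), the replicate number as a block and only the mutants in the fit, and without Bmi1 mutant replicate 3 or 4 or double mutant replicate 2, where the lowest size was 0.81. The Mtor call held in 7 of 11 and ended with median scaling (-0.64), the replicate block and only the mutants in the fit, and the Foxo3 call ended with the replicate block (limma adjusted p = 0.0556). The Grb14 call ended with normexp (0.97), and that of Irs1 with its dimmer probe (-0.80). With slide as a fixed block 0 of the 44 passed by limma and 9 had an unadjusted p under 0.05, in a fit that called 295 of 31064 features.

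The genes whose levels followed Igfbp5 most closely over the 8 mutant arrays, of 16162 ranked, were Shf, Ccl11, Nme3, Col8a2 and Gatad1, with Pearson r of 0.992, 0.984, 0.983, 0.976 and 0.975. Over all 12 arrays the values were 0.653, 0.813, 0.720, 0.715 and 0.303. Ccl11, a chemokine, was well above background on 0 Bmi1 mutant arrays and on all 4 of each other genotype, with levels of -1.76 ± 0.23 (SD, n = 4) in wild type and -1.53 ± 1.32 in double mutant colonies. Among the members, r with Igfbp5 over the 8 arrays was 0.953 for Igfbp3, 0.834 for Igfbp4, 0.710 for Igf2r, 0.229 for Igf1, 0.01 for Igf1r, -0.44 for Igfbp7 and -0.82 for Igfbp2. These arrays share 2 genotypes that differ in Igfbp5, so the correlations are descriptions.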

How the data were processed

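Per the labels' protocols, whole-transcriptome amplification of total RNA preceded Cy3 labelling, and each sample went on 1 Agilent mouse array with 1 colour. The authors extracted the scans with Feature Extraction 10.7.3.1, protocol GE1_107_Sep09, per the file headers, and deposited each spot's background-subtracted processed signal, a linear intensity. Their deposited table of processed values is on a log2 scale, with column medians of 7.21 to 7.24 and a correlation of 0.992 to 1.00 with each array's log2 spot median. The sources used here do not state how its columns were normalized. The file headers name build mm9, and printed coordinates are those of RefSeq on GRCm38.p6 only.

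Groups and replicate numbers come from the titles. Control spots and spots the scanner software marked as outliers were left out. The log2 processed signal was scaled by the array's 75th percentile. A probe entered the fit if any genotype had 3 or more of its 4 arrays well above background (39338 of 41174 did), and the brightest stood for its gene or unnamed accession. Probes were named by looking up their accession, version removed, in RefSeq: 24844 probes had 1 symbol, 0 several and 16330 none. All 12 arrays entered 1 limma 3.58.1 model in R 4.3.3 with a mean per genotype. Benjamini-Hochberg adjustment ran over all 31064 features (16986 genes with a symbol and 14078 accessions without one), calls being made at an adjusted p under 0.05, and the scripts were tested on simulated data. Spots were not saturated (0 on each array), and the number of arrays limits the precision. No 2 arrays held identical values.

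Named were all members with every probe and, of the pathway list, Igf2, Insr, Igfbp1 and the called gene with the largest change relative to the median of all features in each role and comparison with wild type. Genes called between the mutants, the further binding proteins and the other genes acting on binding proteins were named after their values were seen. The 5 genes most like Igfbp5 were taken by correlation over the mutant arrays. Members, lists and markers were chosen with earlier results of these data known. Samples with the same replicate number did not deviate together (correlations of -0.15 to 0.22), so the numbers were not treated as pairs. Alternatives covered scaling, background correction, filters, slide, replicate number, probe choice, samples in the fit and each array left out.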

Additional observations from a re-analysis of the deposited data

Results flagged for a closer look

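Igfbp7 on double mutant replicate 4 had a level of 0.39, while the other 3 double mutant arrays read 1.76 to 2.03, and the gap made it stand apart from its group. The dimmest Igf1r probe on Bmi1 mutant replicate 3 had a level of -0.87, below the other 3 Bmi1 mutant arrays. Of 39 groups of 4 arrays examined over the 13 probes, 2 held such an array, and chance gives about 1 in 20.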

How the results depend on the processing

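Of the 7 tested members, Igfbp2, Igfbp4, Igfbp7 and Igf1r kept their Bmi1 mutant against wild type calls, and Igf1r its double mutant call, under all alternatives run. The number called in double mutant against wild-type colonies was 6, and fell to 1 with quantile normalization and in the authors' processed values and to 3 with normexp background correction. That correction used the spot median and was added after seeing the data, since the planned one on spot means was not run. Leaving out 1 array gave 4 to 7 members there and 6 to 7 in Bmi1 mutant. Relative to the median of named genes only, an alternative added after seeing the data, Igfbp3 in Bmi1 mutant against wild-type colonies turned from 0.36 to -0.45. Direction turned for Igfbp3 in Bmi1 mutant with median scaling (0.057) and for Igf1 in double mutant colonies with quantile normalization (0.010). Features called between the mutants numbered 2347, and 1380 with quantile normalization, 1058 with normexp, 295 with slide as a fixed block, 969 with only the mutants in the fit and 1392 with the replicate number as a block. The replicate block changed no count of members called, 6 in each comparison with wild type. Leaving out 1 array gave 1432 (without double mutant replicate 3) to 2700 features between the mutants, 1506 without Bmi1 mutant replicate 4, 24819 to 26083 in Bmi1 mutant and 25600 to 26644 in double mutant against wild type. Keeping only probes above background on all 12 arrays left no value for Igf1, and dim signal limits Igf1 and the dimmer Igfbp5 probe. The cause of these shifts was not tested.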
